A study of Mus musculus with 38 samples.

Results

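The genes described here are 8 markers of oligodendrocyte precursor cells and early oligodendrocytes, Pdgfra, Cspg4, Olig1, Olig2, Sox10, Gpr17, Bcas1 and Enpp6. They were taken as a fixed list and matched by Ensembl identifier to mouse gene symbols. All 8 were found among the 48709 genes counted in each of 38 mice. The libraries were made from hippocampal RNA of C57BL/6 mice that fall into 8 groups by genotype, chow and age. APPPS1ΔE9 mice carry transgenes under the mouse prion promoter, a mutant amyloid precursor protein among them, and form amyloid plaques with age. WT mice carry none. Anle138b, a small molecule that binds protein aggregates, was given in the chow, and chow without it was the placebo. At 6 months of age, the pre-plaque cohort, there were 4 mice in each of the WT placebo, WT anle138b, APPPS1ΔE9 placebo and APPPS1ΔE9 anle138b groups. At 10 months, the post-plaque cohort, there were 5, 5, 5 and 7 mice in the same order. The age of the mice and the cohort, with its own treatment window and sequencing libraries, cannot be told apart.

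Oligodendrocyte precursor cells are the dividing glial cells from which myelinating oligodendrocytes form, and they persist throughout the adult brain. Their proliferation is driven by platelet-derived growth factor acting on the receptor Pdgfra, and their identity is held by the transcription factors Olig1, Olig2 and Sox10. On the way to a myelinating cell they lose Pdgfra and Cspg4, pass through a stage marked by Gpr17, Bcas1 and Enpp6, and then switch on genes of the myelin sheath. In a bulk tissue library, fewer cells of a type and less RNA per cell cannot be told apart. The labels of the genotypes were checked on App and Prnp, whose counts the transgenes raise. App, in counts-per-million of each library (CPM), was between 1505.6 and 1809.4 CPM in the 18 WT mice and between 3228.2 and 4317.5 in the 20 APPPS1ΔE9 mice. The 4 placebo-treated WT mice of 6 months are called WT in their titles and transgenic in a genotype label. Their App was between 1624.0 and 1796.4 CPM, and they were used as WT. The study describes its mice as male, while Y-linked genes were near 0 in 12 of the 38, of which 11 were WT. These were 3 of 4 WT placebo and 2 of 4 WT anle138b mice of 6 months. At 10 months they were 3 of 5 WT placebo, 3 of 5 WT anle138b and 1 of 7 APPPS1ΔE9 anle138b mice. Genotype and Y-linked expression are therefore partly confounded. All 8 genes were counted in every mouse, from a lowest count of 79 for Enpp6 to a highest of 5024 for Bcas1.

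The genes differ in how specific they are. Pdgfra (chr5:75152292-75198215, plus strand, coordinates of GRCm38) encodes the receptor for platelet-derived growth factor and is also expressed by fibroblasts. Cspg4 (chr9:56865033-56899870, plus strand), the NG2 proteoglycan, is also expressed by pericytes. Olig1 (chr16:91269772-91271933, plus strand) and Olig2 (chr16:91225457-91228677, plus strand) are neighbours on their chromosome and encode related basic helix-loop-helix factors. Sox10 (chr15:79154908-79165240, minus strand) encodes an HMG-box factor that all stages of the lineage use. Gpr17 encodes a receptor of committed precursors. Bcas1 (chr2:170346991-170427845, minus strand) and Enpp6 (chr8:46986887-47096762, plus strand), the latter a choline-specific phosphodiesterase, mark newly forming myelinating oligodendrocytes.

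Promoter sequence from RefSeq (GRCm38.p6) was matched for 4 of the 8, Pdgfra, Cspg4, Olig2 and Enpp6, and not for Olig1, Sox10, Gpr17 and Bcas1. The stretches of Pdgfra and Cspg4 are shown because both genes, markers of dividing precursors, went opposite to Bcas1 and Sox10 in a split of the libraries given below. Each is the plus strand 5′ to 3′, ends before both the RefSeq and the GENCODE start of the gene, and is in lower case with capitals reserved for motif matches.
Pdgfra, chr5:75152001-75152250: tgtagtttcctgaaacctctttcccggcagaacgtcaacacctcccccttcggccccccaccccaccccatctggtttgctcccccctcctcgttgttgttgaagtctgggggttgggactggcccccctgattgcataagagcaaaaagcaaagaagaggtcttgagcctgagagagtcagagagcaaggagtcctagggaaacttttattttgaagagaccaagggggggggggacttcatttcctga
Cspg4, chr9:56864854-56865032: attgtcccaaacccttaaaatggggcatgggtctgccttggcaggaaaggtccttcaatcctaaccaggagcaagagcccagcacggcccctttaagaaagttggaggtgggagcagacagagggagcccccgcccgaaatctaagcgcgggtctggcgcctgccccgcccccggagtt
The motifs searched on both strands were the E-box CAGCTG, a palindrome that basic helix-loop-helix factors can bind, and the SOX core ACAAAG, and they share no stretch. Neither was found in these 250 and 179 bases, so no base is in capitals, nor in the corresponding 157 bases of Olig2 and 250 bases of Enpp6. Among 32851 promoters, 13.001% held the E-box and 16.5% the SOX core in a stretch of 250 bases, and 9.16% and 12.2% in one of 179 bases.

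Levels were compared between genes per kilobase of exon (RPKM, from the CPM and the exon length). Bcas1 was highest, with a median of 34.3 RPKM over the 38 mice, and Olig1 followed with 28.1 RPKM. Sox10 had a median of 13.1 RPKM, Gpr17 8.77, Olig2 7.96 and Pdgfra 6.53. Cspg4 and Enpp6 were lowest, with medians of 1.66 and 1.61 RPKM. The ranges over mice overlapped between all neighbours in this order except Olig1 over Sox10 (lowest Olig1 19.01, highest Sox10 17.01) and Pdgfra over Cspg4 (lowest Pdgfra 4.44, highest Cspg4 2.45). The plot of CPM by mouse shows each gene on its own scale.

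**Figure D1:**
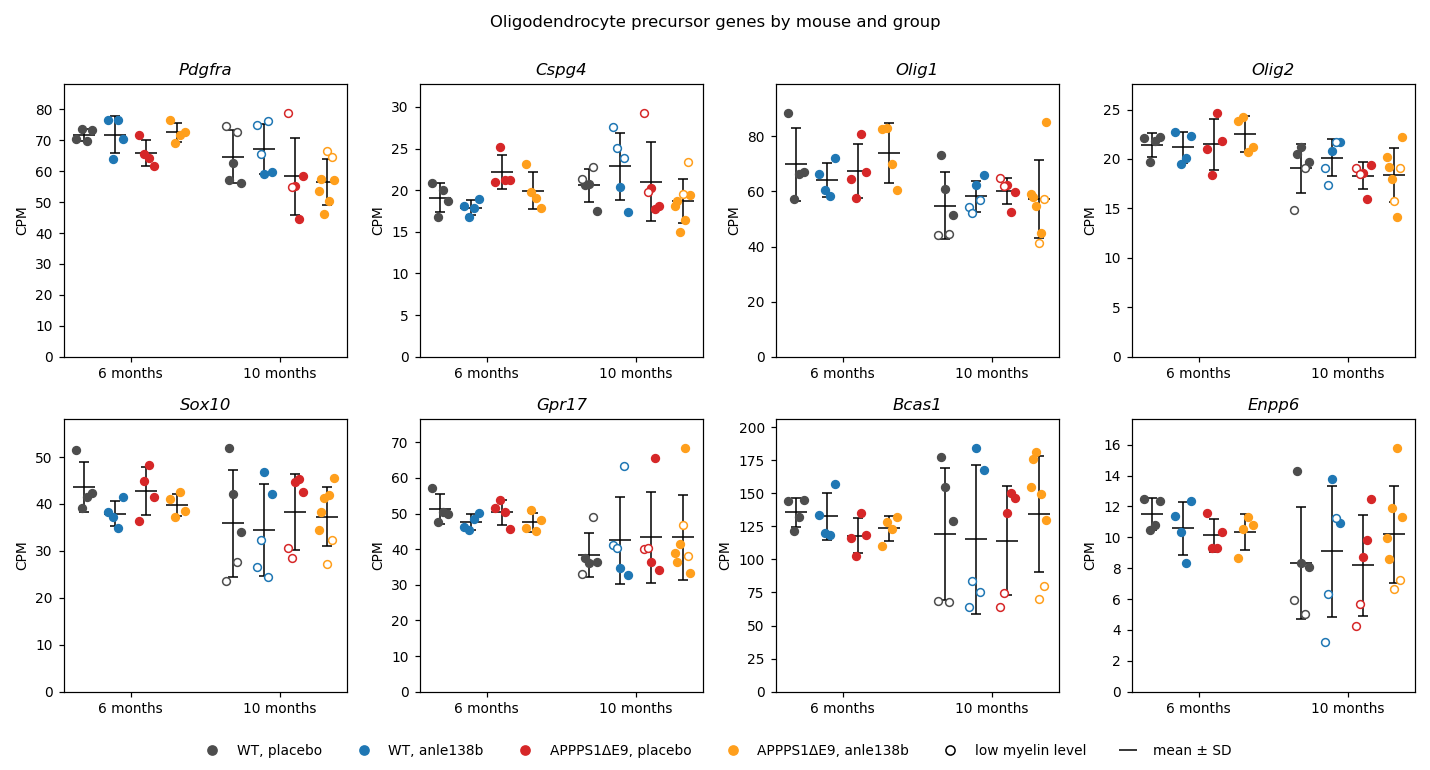
CPM (vertical axis, from 0) of the 8 genes in each mouse, by cohort and group. Points are mice, open points are the 9 libraries of 10 months with a low level of myelin genes, and black bars are the group mean ± SD. Bcas1 of the open points lies between 64.02 and 83.4 CPM, below every other mouse.

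At 6 months the spread between mice differed by gene. The highest mouse was 1.24 times the lowest for Pdgfra, 1.27 times for Gpr17 and 1.34 times for Olig2. It was 1.47 times for Sox10, 1.51 for Cspg4 and for Enpp6, 1.53 for Bcas1 and 1.54 for Olig1, the most variable. The pooled SD within groups on the log2 CPM scale was between 0.085 for Pdgfra and 0.21 for Olig1, against a median of 0.15 over all genes tested. At 10 months it was 0.62 for Bcas1, 0.61 for Enpp6, 0.36 for Sox10 and 0.33 for Gpr17, against a median of 0.20 over all genes. The SD of Bcas1 was 4.12 times that at 6 months, a ratio above that of 97.7% of the genes tested. For Gpr17 the ratio was 3.62 and for Enpp6 3.44, above 96.6% and 96.1% of the genes. Olig1 stood at the other end, with a ratio of 1.23 against a median of 1.198 over all genes.

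The libraries of 10 months were split in a way that runs through all 4 groups, and without the lower set the SD within groups was 0.17 for Bcas1, 0.34 for Enpp6 and 0.37 for Gpr17. The mean log2 CPM of 16 genes of myelin and mature oligodendrocytes was between 5.67 and 6.34 in 9 of the 22 mice of 10 months and between 6.70 and 7.21 in the other 13. In the 16 mice of 6 months it was between 6.67 and 7.07. The 9 mice were 2 of 5 WT placebo, 3 of 5 WT anle138b, 2 of 5 APPPS1ΔE9 placebo and 2 of 7 APPPS1ΔE9 anle138b mice, and the limit between the sets was chosen after seeing the data.

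The 8 genes lay on both sides of this split. Bcas1 was between 64.02 and 83.4 CPM in the 9 mice and between 129.4 and 184.1 in the 13, so the sets did not overlap. Sox10 did not overlap either, with 23.6 to 32.4 CPM in the 9 mice and 34.1 to 51.9 in the 13. Enpp6 was between 3.20 and 11.2 CPM in the 9 and between 8.06 and 15.8 in the 13, with 1 mouse of the 9 inside the range of the 13. Pdgfra and Cspg4 went the other way. Pdgfra was between 54.9 and 78.8 CPM, with a median of 72.8, in the 9 mice and between 44.5 and 62.7, with a median of 57.02, in the 13. Cspg4 had a median of 23.4 CPM in the 9 and 18.1 in the 13. Olig1, Olig2 and Gpr17 overlapped widely, Olig2 with medians of 19.1 and 19.7 CPM. These values describe libraries set apart by their myelin level and are given with no test. The plot against the myelin gene level shows the 3 patterns side by side.

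**Figure D2:**
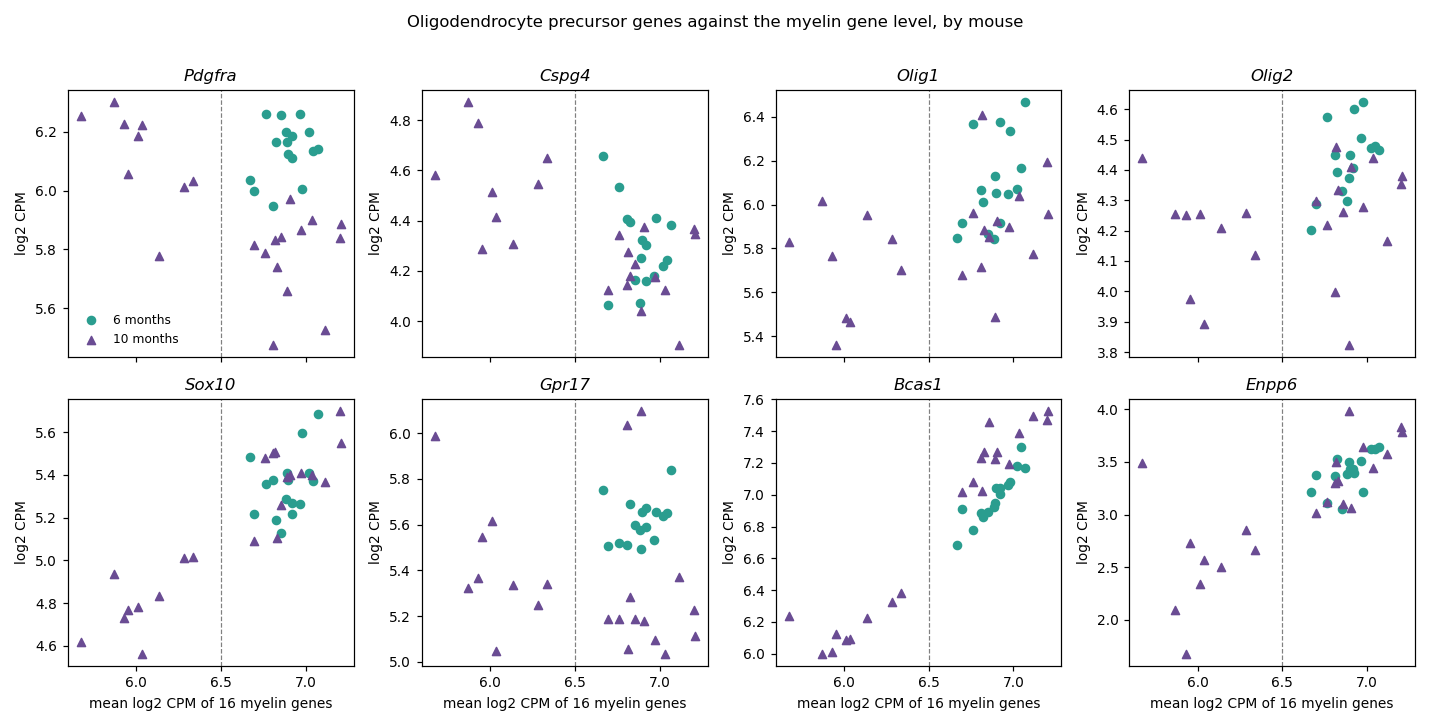
The log2 CPM of each gene (vertical axis) against the mean log2 CPM of 16 myelin genes (horizontal axis), 1 point a mouse, circles for 6 months and triangles for 10 months. The dashed line at 6.5 separates the 9 libraries of low myelin level. Sox10, Bcas1 and Enpp6 are low to the left of the line, Pdgfra and Cspg4 are mostly high there, and Olig2 and Gpr17 spread on both sides.

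Other genes of the lineage and of other cells moved with the split. The summed level of 16 further precursor genes was between 1162.4 and 1348.9 CPM in the 9 libraries and between 963.9 and 1046.4 in the 13, without overlap, and between 1046.5 and 1180.3 at 6 months. That of 8 mural cell markers, which include other genes of pericytes that express Cspg4, was between 219.0 and 266.2 CPM in the 9 and between 175.2 and 224.3 in the 13. For 8 markers of fibroblasts and meninges, cells that express Pdgfra, it was between 86.2 and 337.5 CPM in the 9 and between 46.4 and 210.0 in the 13, and none of these markers was at 0 in all mice. Their part in the levels of Pdgfra and Cspg4 was not tested.

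Genes that differ along the long axis of the hippocampus, named after their values were seen, separated the same libraries in part. Of 7 such genes, Wfs1, Htr2c and Dlk1 overlapped between the 9 and the 13 libraries, and Lct, Dsp, Trhr and Grp did not. Lct, known from the dorsal dentate gyrus, was between 2.61 and 22.5 CPM in the 9 libraries of low myelin level, between 77.9 and 141.6 in the 13 others and between 39.3 and 63.4 at 6 months, with no overlap between the 3 sets. Trhr, known from the ventral dentate gyrus, was between 7.46 and 20.6 CPM in the 9, between 0.63 and 5.43 in the 13 and between 6.94 and 15.1 at 6 months. Grp, a ventral marker, was between 22.6 and 59.2 CPM in the 9 and between 0.67 and 18.8 in the 13. The labels name the tissue only as hippocampus. What part the sampled stretch of the hippocampus has in any of the comparisons below was not tested.

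The comparison of genotypes asks whether the transgenes go with a change of the precursor genes. In placebo-treated mice of 6 months, 0 of the 8 genes passed the threshold (edgeR's quasi-likelihood test, Benjamini-Hochberg adjusted p under 0.1), where 0.0715% of all 16774 genes tested did. At an unadjusted p under 0.05 there were 3 of the 8, beside 1858 of all genes (11.1%), and DESeq2 called 0 of the 8. Cspg4 was 20.9, 16.8, 19.99 and 18.6 CPM in WT and 21.01, 25.2, 21.3 and 21.2 CPM in APPPS1ΔE9 mice. Every APPPS1ΔE9 mouse stood above the WT mice, and the log2 fold change was 0.22 ± 0.09 (SE), with an adjusted p of 0.41 (edgeR). Y-linked genes were near 0 in 3 of these 4 WT mice and in 0 of the 4 APPPS1ΔE9 mice. Pdgfra was 70.5, 73.5, 69.7 and 73.5 CPM in WT and 71.7, 65.5, 64.2 and 61.7 CPM in APPPS1ΔE9 mice. A single APPPS1ΔE9 mouse lay inside the WT range and the others below it, with a log2 fold change of -0.13 ± 0.06 and an adjusted p of 0.44 (edgeR). Bcas1 had a log2 fold change of -0.20 ± 0.08 with an adjusted p of 0.43 (edgeR), from a mean of 135.4 ± 11.2 CPM (SD, n = 4) in WT to 118.0 ± 13.4 CPM (SD, n = 4) in APPPS1ΔE9 mice. The median log2 fold change of the 8 genes was -0.04 and that of all genes tested was 0.00.

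At 10 months on placebo, 0 of the 8 genes passed the threshold (edgeR), where 0.324% of all genes did. None reached an unadjusted p under 0.05, beside 696 of all genes, and DESeq2 called 0 of the 8. Pdgfra was 74.7, 57.2, 62.7, 72.8 and 56.3 CPM in WT and 78.8, 54.9, 55.2, 44.5 and 58.3 CPM in APPPS1ΔE9 mice. Of the 5 APPPS1ΔE9 mice, 3 lay below the WT range, 1 inside it and 1 above it, and the log2 fold change was -0.15 ± 0.14 (adjusted p = 0.99997, edgeR). Cspg4 had a log2 fold change of 0.03 ± 0.13 and Bcas1 of -0.07 ± 0.34. The SE of Bcas1 had been 0.08 in the same comparison at 6 months, and at 10 months its 95% interval ran from -0.74 to 0.59.

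In anle138b-treated mice of 6 months, 0 of the 8 genes passed the threshold between genotypes (edgeR), where 0.047% of all genes did, and 0 of the 8 were under an unadjusted p of 0.05 or called by DESeq2. Fold changes lay between -0.10 for Bcas1 and 0.21 for Olig1 on the log2 scale. At 10 months, again 0 of the 8 passed (edgeR), where 0.723% of all genes did, with 2 of the 8 and 5.78% of all genes under an unadjusted p of 0.05 and 0 of the 8 called by DESeq2. For Pdgfra the difference was -0.25 ± 0.10 on the log2 scale, with an adjusted p of 0.76 (edgeR). It was 74.9, 65.4, 59.1, 76.2 and 59.7 CPM in the 5 WT mice, and in the 7 APPPS1ΔE9 mice the lowest was 46.1, the median 57.02 and the highest 66.5 CPM. Cspg4 differed by -0.30 ± 0.12 on the log2 scale, which did not pass (adjusted p = 0.79, edgeR), from a mean of 22.9 ± 4.01 CPM (SD, n = 5) to 18.7 ± 2.65 CPM (SD, n = 7). For both genes the ranges of the groups overlapped. With 3 of the 5 WT and 2 of the 7 APPPS1ΔE9 mice among the libraries of low myelin level, the shares were unequal. Without those libraries the log2 fold changes were -0.17 ± 0.09 for Pdgfra and -0.11 ± 0.11 for Cspg4.

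The comparison of chows asks whether anle138b goes with a change of these genes. In WT mice of 6 months 0 of the 8 passed the threshold, and 0% of all genes did (edgeR). At an unadjusted p under 0.05 there were 1 of the 8 and 310 of all genes, and DESeq2 called 0 of the 8 and 2 of all genes. The 1 gene was Sox10, at 51.4, 39.1, 41.5 and 42.4 CPM on placebo and 38.4, 37.1, 34.9 and 41.4 CPM on anle138b. The groups overlapped, and the log2 fold change was -0.20 ± 0.09 (adjusted p = 0.9998, edgeR). In WT mice of 10 months 0 of the 8 and 0% of all genes passed (edgeR), with 0 of the 8 and 212 of all genes under an unadjusted p of 0.05 and 0 by DESeq2. The log2 fold changes lay between -0.06 and 0.15 and their SE between 0.10 and 0.39.

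In APPPS1ΔE9 mice of 6 months 0 of the 8 genes passed the threshold between chows (edgeR), where 0.0529% of all genes did. At an unadjusted p under 0.05 there were 1 of the 8 and 13.1% of all genes, and DESeq2 called 0 of the 8 and 205 of all genes. Pdgfra was 71.7, 65.5, 64.2 and 61.7 CPM on placebo and 76.7, 69.1, 71.8 and 72.7 CPM on anle138b. A single placebo mouse overlapped with the treated mice, and the log2 fold change was 0.14 ± 0.06 (adjusted p = 0.35, edgeR). Means were 72.6 ± 3.14 CPM (SD, n = 4) in the treated and 71.8 ± 1.97 CPM (SD, n = 4) in the placebo-treated WT mice. The genotype comparison on placebo uses the same 4 APPPS1ΔE9 placebo mice, so its difference in Pdgfra and this one are not independent. Neither passed. In APPPS1ΔE9 mice of 10 months 0 of the 8 and 0% of all genes passed between chows (edgeR), with 0 of the 8 and 254 of all genes under an unadjusted p of 0.05 and 0 by DESeq2. Enpp6 had the fold change farthest from 0, 0.32 ± 0.27 on the log2 scale, and Pdgfra one of -0.04 ± 0.13. The plot of the pairwise fold changes shows the wider errors of Bcas1 and Enpp6 at 10 months.

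**Figure D3:**
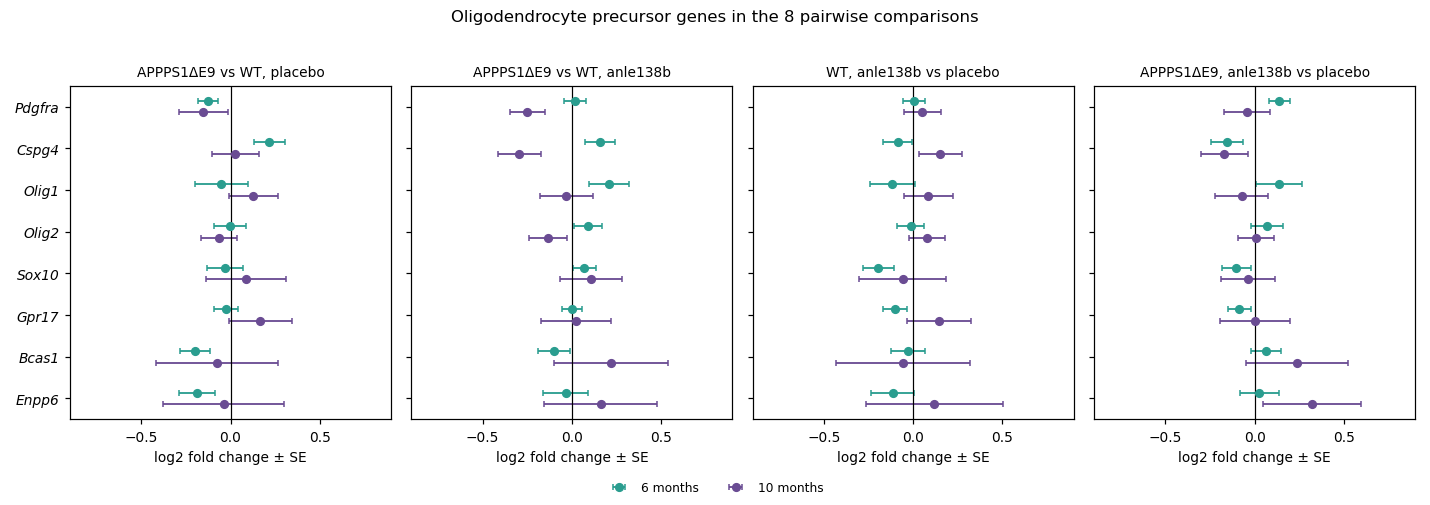
The log2 fold change (horizontal axis) of each gene in the 8 pairwise comparisons, points with ± SE, green for 6 months and purple for 10 months. No gene passed the threshold in any panel, and fold changes lie between -0.30 for Cspg4 and 0.32 for Enpp6.

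Contrasts over all 38 mice gave the same counts. Between genotypes, averaged over cohorts and chows, 0 of the 8 genes passed (edgeR), where 1.46% of all genes did. The 1 of the 8 under an unadjusted p of 0.05, beside 8.91% of all genes, was Pdgfra, at -0.13 ± 0.06 on the log2 scale with an adjusted p of 0.49 (edgeR), and DESeq2 called 0 of the 8. Between chows 0 of the 8 and 0% of all genes passed (edgeR), with 0 of the 8 and 877 of all genes under an unadjusted p of 0.05, and DESeq2 called 0 of the 8 and 5 of all genes. The interaction of genotype and chow was past the threshold for 0 of the 8 genes in either cohort and for 0% of all genes (edgeR). Both interactions were fitted over all 38 mice with 1 shared estimate of the spread. The SD of Bcas1 within groups was 0.15 at 6 months and 0.62 at 10 months. The interaction of 6 months had an SE of 0.46 for Bcas1 and 0.45 for Enpp6, so it could miss differences in that cohort. None of the 8 was under an unadjusted p of 0.05 in these interactions, beside 1193 and 573 of all genes at 6 and 10 months, and DESeq2 called 0 of the 8. When the genotype contrast of one cohort was set against that of the other, 0 of the 8 passed (edgeR), where 0.176% of all genes did, and DESeq2 called 0. Cspg4 was the 1 of the 8 under an unadjusted p of 0.05 there, beside 7.42% of all genes, with a log2 difference of -0.32 ± 0.13 (adjusted p = 0.55, edgeR).

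Some microglial genes passed between genotypes in the same libraries. Of 8 general microglial markers 0 passed on placebo at 6 months and 3 at 10 months. Of 6 genes of plaque-associated microglia, 3 were higher in APPPS1ΔE9 mice on placebo at 6 months and 6 at 10 months (edgeR, adjusted p under 0.1), with medians of 1.51 and 2.14 on the log2 scale. Cst7, a cystatin of such microglia, was higher by 6.33 ± 0.33 on the log2 scale at 10 months (adjusted p = 6.3e-06, edgeR). Around the 8 genes, none of 16 further precursor genes, 12 genes of committed and newly formed oligodendrocytes, 16 myelin genes, 5 genes of platelet-derived growth factors and their receptors or 12 transcription regulators of the lineage passed on placebo at either age. Of 10 cell cycle genes, of which 9 were tested at 6 months and 8 at 10, none did. The medians of these 6 lists lay between -0.16 and 0.00 at 6 months and between -0.08 and 0.21 at 10 months. Lhfpl3 and Cspg5 had the smallest p of the further precursor genes at 6 months, with log2 fold changes of -0.25 ± 0.09 and -0.11 ± 0.05. Car2 and Ermn did so among the myelin genes, with -0.29 ± 0.07 and -0.22 ± 0.08.

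The contrast with the most calls was between the cohorts. Of the 8 genes, 4 were lower at 10 than at 6 months and 0 higher (edgeR, adjusted p under 0.1), averaged over genotypes and chows. Of all 18232 genes tested 61.8% passed in this contrast, 32.1% lower and 29.7% higher, so the count of 4 in 8 is no higher than the background. DESeq2 called the same number. The median log2 fold change of the 8 genes was -0.19, against -0.02 over all genes.

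Pdgfra was between 61.7 and 76.7 CPM, with a median of 71.1, in the 16 mice of 6 months and between 44.5 and 78.8, with a median of 58.7, in the 22 of 10 months. Of the 22, 13 lay below the lowest mouse of 6 months and 1 above the highest. The 9 libraries of low myelin level had a median of 72.8 CPM, near that of 6 months, and the 13 others one of 57.02. The lower level at 10 months was thus mainly that of the 13. The log2 fold change was -0.20 ± 0.06 (adjusted p = 0.0033, edgeR). Olig1 was between 57.4 and 88.4 CPM, with a median of 66.7, at 6 months and between 41.1 and 85.0, with a median of 57.6, at 10 months. There 11 of 22 mice lay below the range of 6 months, none lay above it, and the log2 fold change was -0.26 ± 0.08 (adjusted p = 0.0052, edgeR). Olig2 was between 18.4 and 24.6 CPM, with a median of 21.8, at 6 months and between 14.2 and 22.2, with a median of 19.1, at 10 months. It overlapped more, with 6 of 22 mice below the range, but 21 of 22 were below the median of 6 months, and the log2 fold change was -0.19 ± 0.05 (adjusted p = 0.0019, edgeR).

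Gpr17 (chr18:31942997-31949636, minus strand) had the most mice outside the range of the other cohort. It was between 45.0 and 57.2 CPM, with a median of 49.1, at 6 months and between 32.8 and 68.4, with a median of 38.5, at 10 months. Of the 22 mice of 10 months, 17 lay below every mouse of 6 months, 3 lay above every one and 2 were within the range. The log2 fold change was -0.23 ± 0.09 (adjusted p = 0.023, edgeR). Gpr17 overlaps Lims2 on the opposite strand, and whether the counting used strand is not given in the sources used here, so reads of the overlap cannot be told apart. The mean count was 1101.1 for Gpr17 and 215.1 for Lims2.

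Sox10, Bcas1, Enpp6 and Cspg4 did not pass. For Sox10 the log2 value was -0.17 ± 0.09 (adjusted p = 0.12, edgeR) and for Enpp6 -0.25 ± 0.15 (adjusted p = 0.15, edgeR). Cspg4 had one of 0.07 ± 0.06, with 18 of the 22 mice inside the range of 6 months. Bcas1 had one of -0.08 ± 0.15, with 9 mice of 10 months below that range and 5 above it.

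The 4 groups gave the contrast separately, with fewer mice each. Pdgfra, Olig1, Olig2, Sox10, Gpr17 and Enpp6 had a negative log2 fold change in each of the 4 groups. In WT mice on placebo 2 of the 8 genes passed (edgeR), Gpr17 (-0.41 ± 0.18) and Olig1 (-0.35 ± 0.16), where 35% of all genes did. In WT mice on anle138b the 1 gene that passed was Cspg4, which was higher at 10 months (0.35 ± 0.13), where 33.6% of all genes passed. The 3 mice of low myelin level among the 5 were at 27.6, 25.1 and 23.9 CPM and the other two at 20.3 and 17.4, with 16.7 to 18.9 at 6 months. In APPPS1ΔE9 mice on placebo 0 of the 8 passed, where 11.7% did, and Olig2 had a log2 fold change of -0.23 ± 0.10. In APPPS1ΔE9 mice on anle138b 3 of the 8 passed, Pdgfra (-0.36 ± 0.10), Olig1 (-0.37 ± 0.14) and Olig2 (-0.29 ± 0.10), where 43.4% of all genes did.

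**Figure D4:**
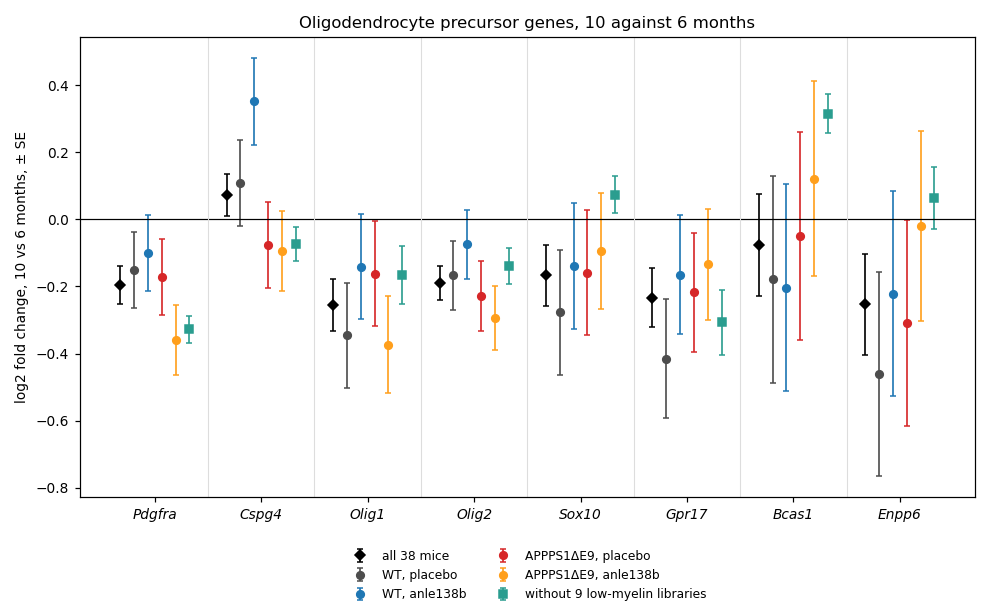
The log2 fold change of each gene between 10 and 6 months (vertical axis, points with ± SE) over all 38 mice, within each of the 4 groups of genotype and chow, and over all groups without the 9 libraries of low myelin level. The sets share mice. Pdgfra, Olig1, Olig2 and Gpr17 lie below 0 in every set, and Bcas1 moves from -0.08 over all mice to 0.31 without the 9 libraries.

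The contrast depended on the libraries of low myelin level for some genes. The 9 libraries are all of 10 months and were set apart by myelin genes, which Bcas1 follows. Their removal alone shifts genes that go with the split and raises Bcas1 at 10 months, so its p is left out. Without the 9 libraries the log2 fold change of Bcas1 was 0.31 ± 0.06, and with the myelin level as a covariate 0.22 ± 0.04. Pdgfra was mostly higher in the 9 libraries, so their removal alone lowers it at 10 months. Its log2 fold changes were -0.33 ± 0.04 without the libraries and -0.31 ± 0.04 with the covariate. Gpr17 was -0.31 ± 0.10 without them, and Olig2 -0.14 ± 0.05. Olig1 was at the threshold without the libraries, with -0.17 ± 0.09 (adjusted p = 0.0999, edgeR). Sox10 (0.07 ± 0.06) and Enpp6 (0.06 ± 0.09) were then near 0. The 13 libraries left at 10 months did not overlap with those of 6 months in Lct or Trhr, as given above.

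Around the 8 genes, the further precursor genes split in direction. Of 16, 8 were lower and 3 higher at 10 months (edgeR, adjusted p under 0.1), with a median of -0.15 on the log2 scale. Of all genes 32.1% were lower and 29.7% higher, which is the background for each count here. Vcan, a matrix proteoglycan of precursors, was higher (0.28 ± 0.04), while Lhfpl3 (-0.24 ± 0.06), Nxph1 (-0.35 ± 0.08) and Cacng4 (-0.18 ± 0.05) were lower. Of 12 genes of committed and newly formed oligodendrocytes 5 were lower and 2 higher, with a median of 0.00. Bmp4, a signal made by committed precursors, fell by 0.80 ± 0.20 on the log2 scale and Tcf7l2, a Wnt effector of the same stage, by 0.57 ± 0.14. Tcf7l2 is also a gene of the thalamus, and of 6 thalamic markers 3 were lower at 10 months. Of the 16 myelin genes 9 were lower and 0 higher, with a median of -0.30, where 32.1% of all genes were lower. In the 13 libraries of higher myelin level their summed level had a median of 6992.2 CPM, against 6576.4 at 6 months and 3626.5 in the 9. Car2, a carbonic anhydrase of oligodendrocytes, was the one with the smallest p (-0.37 ± 0.06).

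The ligands and receptors of the platelet-derived growth factor family moved in both directions. All 5 passed between the cohorts (edgeR), where 61.8% of all genes did, 32.1% lower and 29.7% higher. Pdgfa, the ligand of Pdgfra that astrocytes and neurons make, was lower (-0.33 ± 0.04, adjusted p = 1.2e-09), as were Pdgfd (-0.62 ± 0.10) and Pdgfc (-0.20 ± 0.07). Pdgfrb, the receptor of pericytes, was higher (0.21 ± 0.04), as was its ligand Pdgfb (0.18 ± 0.04). Of 12 transcription regulators of the lineage 4 were lower, Sox9 (-0.28 ± 0.05), Id2 (-0.26 ± 0.06) and Hes5 (-0.40 ± 0.18) among them, and Notch1 was higher (0.19 ± 0.06). Of the 9 cell cycle genes tested 5 were lower and 1 higher, with Pcna at -0.24 ± 0.03 and Mki67 at 0.39 ± 0.12. Top2a was -1.18 ± 0.40 and Cdk1 -1.27 ± 0.30. In a single WT mouse on anle138b of 6 months the mean log2 CPM of the cell cycle genes was 3.35, against at most 1.77 in any other mouse. The values of the cell cycle genes above include that mouse. Without it the same 4 of the 8 genes passed.

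Markers of other cell types are given beside the 32.1% of all genes that were lower and the 29.7% that were higher. Of 6 choroid plexus genes all were lower at 10 months, with a median of -3.47 on the log2 scale. Of 8 fibroblast and meningeal markers 5 were lower and 0 higher. Of 8 mural cell markers 3 were higher and 1 lower. Of 8 astrocyte markers 7 were lower and 1 higher, and of 6 endothelial markers 4 were higher and 1 lower. Their part in the change of Pdgfra was not tested.

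Gpr17 stood above the rest of the group in 1 mouse of each of the 4 groups of 10 months. It was 49.0 CPM in a WT placebo mouse, 63.4 in a WT anle138b mouse, 65.6 in an APPPS1ΔE9 placebo mouse and 68.4 in an APPPS1ΔE9 anle138b mouse, all given as replicate 4 except the last, replicate 5. In the other 18 mice it was between 32.8 and 46.7 CPM, with a median of 36.9. The WT placebo mouse was close to the highest of these 18 and within the range of 6 months, 45.0 to 57.2 CPM. Lims2, the overlapping gene, was not raised in the 4 mice, at 7.75, 8.19, 10.2 and 8.39 CPM against 6.86 to 12.9 in the others. The mean log2 CPM of the cell cycle genes was 1.74, 1.71 and 1.77 in the last 3 of the mice, above the highest of the 18 others, 1.49, but 1.14 in the WT placebo mouse. Top2a, a topoisomerase of dividing cells, was 2.60, 2.01 and 3.47 CPM in the same 3 and 0.47 in the WT placebo mouse, with 0.36 to 1.42 in the others. In the WT anle138b mouse of 6 months with the highest cell cycle level of all mice, 3.35, Gpr17 was 45.5 CPM. That is near the low end of its cohort. Depth did not set the 4 mice of high Gpr17 apart, with totals between 23251794 and 25226935 counts.

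In these 4 mice the other genes went separate ways. Pdgfra was 72.8 and 76.2 CPM in the 2 WT mice, which are among the libraries of low myelin level, and 44.5 and 50.5 in the 2 APPPS1ΔE9 mice, which are not. Olig2 was 19.1 and 21.7 CPM in the WT mice and 15.96 and 14.2 in the APPPS1ΔE9 mice, the latter 2 the lowest of the 13 libraries of higher myelin level. The APPPS1ΔE9 mouse on anle138b also held the highest Enpp6 of all 38 mice, 15.8 CPM, and a choroid plexus level of 6.27 on the log2 scale, against at most 3.49 in the 18 others. The plot of Gpr17 against Olig2 shows the 4 mice above the rest of their cohort.

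**Figure D5:**
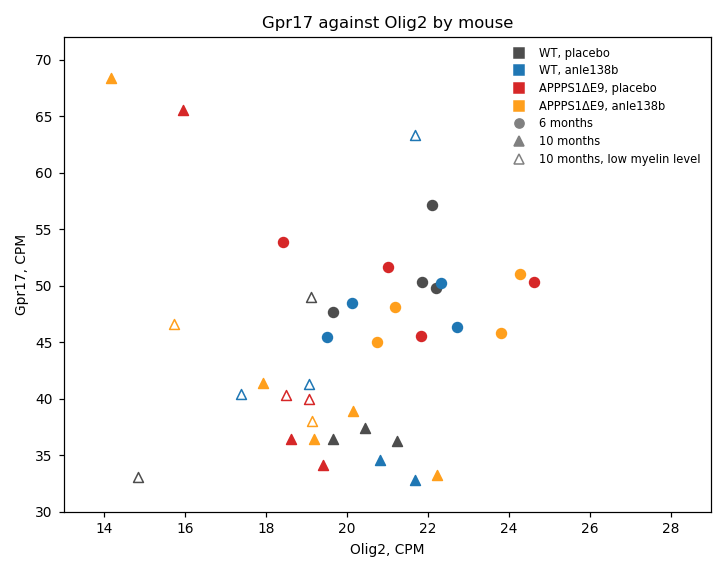
Gpr17 against Olig2, both in CPM, 1 point a mouse, circles for 6 months and triangles for 10 months, open triangles for the libraries of low myelin level. The mice of 6 months lie between 45.0 and 57.2 CPM of Gpr17, and 3 triangles lie above 60, at 63.4, 65.6 and 68.4 CPM.

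How the 8 genes varied together from mouse to mouse was examined within sets of mice, since the libraries of 10 months fall into 2 clusters. The set of 6 months was centred on group means and permuted within groups. Both sets of 10 months were not, so their r also hold differences between groups. Of 28 pairs in each of 3 sets, 84 in all, 3 passed a Benjamini-Hochberg adjusted p under 0.1 by both Pearson's r and Spearman's rho (permutation tests over mice, two-sided). Olig1 and Olig2 varied together in the 16 mice of 6 months, centred on their group means, with r = 0.81 (permutation p = 0.0013, adjusted 0.048) and rho = 0.88. They did so in the 13 mice of 10 months of higher myelin level, with r = 0.79 (permutation p = 0.0017, adjusted 0.048) and rho = 0.76. Without the 2 mice farthest from the median of Olig1, r was 0.84 and 0.61. In the 9 mice of low myelin level r was 0.66 (exact permutation p = 0.053), and 0.11 without 2 mice.

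The third pair was Olig2 and Gpr17, which were opposed in the 13 mice, with r = -0.92 (permutation p = 9e-05, adjusted 0.0076) and rho = -0.80. Without the 2 mice farthest from the median of Olig2, r was -0.69. At 6 months r was 0.10 and in the 9 mice 0.63 (exact permutation p = 0.07), so the direction was not shared. Pdgfra and Cspg4 had r = 0.67 in the 13 mice and 0.62 in the 9, with adjusted p of 0.17 and 0.35 (permutation and exact permutation), and r = 0.14 at 6 months. Bcas1 and Enpp6 had r = 0.64 at 6 months, 0.38 in the 13 and 0.66 in the 9, none past the adjusted threshold.

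The genes most like each of the 8 were taken by Pearson's r over all 38 mice after centring on group means, as a description. The 38 mice include both sides of the myelin split, so the r over the 16 mice of 6 months is given beside it. Bcas1 was most like Mobp (0.97, and 0.94 at 6 months) and Mbp (0.96 and 0.83), both of the myelin sheath. Sox10 was most like Phldb1 (0.94 and 0.76) and Arhgap23 (0.93 and 0.73). Enpp6 was most like Rnf122 (0.89 and 0.62) and Chn2 (0.87 and 0.28).

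The precursor receptor and proteoglycan had other partners. Pdgfra was most like Cspg5, itself a proteoglycan of precursors (0.89 and 0.64), and Slc13a5 (0.88 and 0.59). Cspg4 was most like Mast1 (0.90 and 0.84) and Pitpnm1 (0.90 and 0.86), at 59.9 and 171.0 CPM. Olig1 was most like Slc35e4 (0.86 and 0.77) and Ctbp1 (0.84 and 0.66), and Olig2 was most like Cxcl14 (0.72 and 0.59) and Ntsr2 (0.70 and 0.48). Gpr17 was most like Brca1 (0.72 and 0.12), at a median of only 1.54 CPM, and Ogdh (0.71 and 0.28), and neither likeness was seen at 6 months.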

How the data were processed

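Hippocampal RNA of 38 mice was sequenced, 1 library a mouse. The authors prepared TruSeq mRNA libraries, aligned reads to mm10 with STAR and counted them per gene with HTSeq (intersection-nonempty), and deposited raw counts of 48709 genes per mouse. The annotation release is not given in the sources used here. Total counts were between 15847985 and 31895808 per mouse. WT mice were littermate controls, but which mice shared a litter is not stated, and no library pair within a group differed by as little as counting noise (chi-square per gene at least 3.17). Y-linked genes were near 0 in 12 mice, 11 of them WT.

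Groups came from the titles. Genes passing filterByExpr of edgeR 4.0.16 (minimum count 10, total 15) were normalized with TMM and tested with the robust quasi-likelihood test in R 4.3.3, pair by pair or over all 38 mice, with Benjamini-Hochberg adjustment over all genes tested and a threshold of 0.1. SE is the log2 fold change divided by the root of F. Levels are TMM-scaled CPM, log2 with a prior count of 2. DESeq2 1.42.0 was an alternative, with RLE size factors, no filter, a threshold of 0.05 and Y-linked covariate or mice. Others were single titled lanes for some chow comparisons, cohort-wide fits, a replicate block and each mouse left out. In the pairwise genotype comparisons no titled lane held mice of both groups, so lane and genotype cannot be told apart there. The same holds for lane and chow in APPPS1ΔE9 mice of 6 months. Alternatives on the myelin level, age within groups and the high cell cycle mouse were added after seeing the data. Replicate numbers do not pair mice. Permutation tests used 100000 draws, or all orders with 9 mice. Symbols came from GENCODE M21 (GRCm38), which held 48349 of the 48709 genes. The fits were tested on simulated data. Of the 8 pairwise comparisons none had every same-numbered pair correlated above 0.1.

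The 8 genes and all lists were chosen with earlier results of these data known. Named were the 8 genes, App and Prnp as check (a further check gene is not reported here), from each list up to 4 genes past the threshold by smallest p (for cohort and placebo genotype contrasts at least 2), and the 2 genes most like each of the 8. From the longer results only a part is named. Genes of the hippocampal axis and of the 4 mice of high Gpr17 were chosen after their values were seen.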

Additional observations from a re-analysis of the deposited data

Results flagged for a closer look

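In 9 of the 64 sets of 1 gene in 1 group, the highest or lowest mouse stood apart from the others by Dixon's criterion at 95%. Chance alone marks about 1 in 20 such sets, and the 8 genes of a mouse are not independent. Gpr17 accounts for 4 of the 9, the highest mouse of every group of 10 months. These were 49.0 CPM in WT placebo mice, where the others were at most 37.4, and 63.4 CPM in WT anle138b mice, where they were at most 41.3. They were 65.6 CPM in APPPS1ΔE9 placebo mice, with the others at most 40.3, and 68.4 CPM in APPPS1ΔE9 anle138b mice, with the others at most 46.7. Cspg4 stood high in 1 APPPS1ΔE9 placebo mouse of each cohort, at 25.2 CPM at 6 months, with the others between 21.01 and 21.3, and at 29.3 CPM at 10 months, with the others between 17.7 and 20.3. The mouse of 10 months is among the libraries of low myelin level. Olig1 was 85.0 CPM in 1 APPPS1ΔE9 mouse on anle138b of 10 months, above 41.1 to 58.99 in the others. Olig2 stood low at 19.6 CPM in 1 WT placebo mouse of 6 months, with the others between 21.8 and 22.2, and at 15.96 CPM in 1 APPPS1ΔE9 placebo mouse of 10 months, with the others between 18.5 and 19.4. The last is the mouse with the highest Gpr17 of its group. None of the 24 interaction tests of the 8 genes passed the threshold (edgeR).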

How the results depend on the processing

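In the 14 contrasts the number of the 8 genes past the threshold stayed within 1.5 times under 440 alternatives and moved further under 8. Leaving out each mouse in turn gave 4 to 6 genes between the cohorts and 0 in every other contrast. Only mice with Y-linked expression gave 2 between the cohorts. They gave 3 between chows in WT mice of 10 months, from 2 against 2 mice (Pdgfra, Cspg4 and Bcas1), where all genes went from 0 to 5550. There both anle138b mice are libraries of low myelin level and both placebo mice are not, so chow and the myelin split cannot be told apart. Y-linked expression as a covariate gave 1 between genotypes on anle138b at 10 months, Cspg4 at -0.43, and the myelin level as a covariate 1 between genotypes over all mice, Pdgfra at -0.13. Between the cohorts, WT placebo mice alone gave 2, WT anle138b mice 1, APPPS1ΔE9 placebo mice 0 and WT mice titled lane 4 1, a subset that is no shared batch, since the titles repeat library numbers in that lane and so name separate runs. The replicate block gave 6 between the cohorts, with Sox10 at -0.23 and Enpp6 at -0.38, and 0 elsewhere. Bcas1 turned from -0.08 between the cohorts to 0.22 with the myelin covariate and 0.31 without the 9 libraries of low myelin level. Of 3584 alternatives of single fold changes, 3551 kept their call and 246 changed sign, 244 of them past the threshold in neither fit. The cause of these differences was not tested.

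Counts over all genes moved more. On placebo at 6 months they were 12 between genotypes, 110 without the filter and 89 with DESeq2. On anle138b they were 8 and 42 with DESeq2, and between chows in APPPS1ΔE9 mice 9, 120 and 205. Leaving out 1 mouse gave 6 to 205, 9 to 44 and 6 to 317 in the same order. At 10 months DESeq2 gave 113 instead of 55 and 188 instead of 124 between genotypes, and leaving out 1 mouse 37 to 67 and 63 to 151.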
